A study of Rattus norvegicus with 6 samples.

Results

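Collagen chains are modified at every stage between synthesis and the finished fibre, and 10 rat genes for the proteins that do this work are described here: P4ha1, P4ha2, P4ha3, Plod1, Plod2, Plod3, Serpinh1, Lox, Loxl1 and Loxl2. They were chosen by gene symbol and not by their values, though earlier results of these data were known. All 10 were found among the 17273 genes of the deposited table. The RNA came from nucleus pulposus cells of wild-type male Sprague Dawley rats, kept in culture. In the animal these cells fill the soft centre of each intervertebral disc. There were 3 control libraries from untreated cells and 3 lactate libraries from cells given 10 mM lactate for 8 h, and both groups were grown in DMEM with fetal bovine serum. The labels give neither the animals' age nor the form of the lactate. Whether the 3 libraries of a group are 3 cultures, 3 animals or repeats of 1 preparation is not stated, so all p-values refer to the spread between libraries and that spread may be technical.

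In the endoplasmic reticulum, prolyl 4-hydroxylases convert prolines of the growing chain to hydroxyproline, without which the collagen helix is not stable at body temperature. Their catalytic alpha subunits are encoded by P4ha1, P4ha2 and P4ha3, and each works with protein disulfide isomerase, the product of P4hb. Lysyl hydroxylases, encoded by Plod1, Plod2 and Plod3, hydroxylate lysines, which decides the kind of cross-link formed later. The product of Plod1 acts mainly in the helix and that of Plod2 on the end regions, called telopeptides. That of Plod3 also attaches sugars to hydroxylysine. Serpinh1 encodes HSP47, a chaperone rather than an enzyme, which binds the folded helix on its way out of the cell. Outside the cell the copper-dependent oxidases encoded by Lox, Loxl1 and Loxl2 turn lysines into aldehydes that link neighbouring molecules. Several of these genes, P4ha1, P4ha2, Plod2, Lox and Loxl2 among them, are known targets of hypoxia-inducible factors.

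The genes did not move as a block. Serpinh1, Plod3, Loxl2, P4ha1, Plod1 and P4ha2 rose between 2.41-fold and 4.07-fold after lactate, P4ha3 rose 1.70-fold, Plod2 was not called, and Lox and Loxl1 were 1.33-fold and 1.27-fold lower. Levels are CPM, read counts brought to a common library total and then scaled by TMM factors, which bring the bulk of genes to a common level. Calls are those of edgeR's quasi-likelihood test at an adjusted p under 0.05 over all 13747 genes tested. All 10 genes passed the filter on low counts. By this rule 7 of 10 were higher, 2 lower and 1 not called, with a median log2 fold change of 1.36, against −0.10 over all genes tested, of which 31.4% were higher and 34.6% lower. All 10 were also among the 2749 most abundant genes, of which 60.8% were higher and 20.1% lower, with a median of 0.62. The share of higher genes, 7 of 10, is therefore near that of genes of like abundance. With TMM factors a call together with a change of at least 2-fold upward was made for 6 of the 10, against 18.1% of all genes tested. This share was not computed for the 2749 most abundant genes, so 6 of 10 is not read as an excess. In bulk RNA, fewer cells of a type and less RNA per cell cannot be told apart.

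The scaling matters for these values. With library totals alone the median over all genes tested moved from −0.10 to −0.96 on the log2 scale. TMM factors gave 4319 higher and 4760 lower genes, and library totals 1722 (12.5%) and 8492 (61.8%). Of the 10 genes, library totals placed 6 higher and 3 lower and left P4ha3 uncalled. The 6 genes with rises above 2-fold with TMM factors were called higher, and Lox and Loxl1 lower, under both scalings. With library totals only Serpinh1 and Plod3 stayed above 2-fold, at 1.16 and 1.01 on the log2 scale. Loxl2 was at 0.78, P4ha1 at 0.61, Plod1 at 0.59 and P4ha2 at 0.40. The median of the 10 genes went from 1.36 to 0.50. P4ha3 and Plod2 changed their call. Fold changes in these libraries also followed transcript length, and with that trend removed 7 of the 10 were higher and 3 not called, where 31.1% of all genes tested were higher and 33.2% lower.

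**Figure D1:**
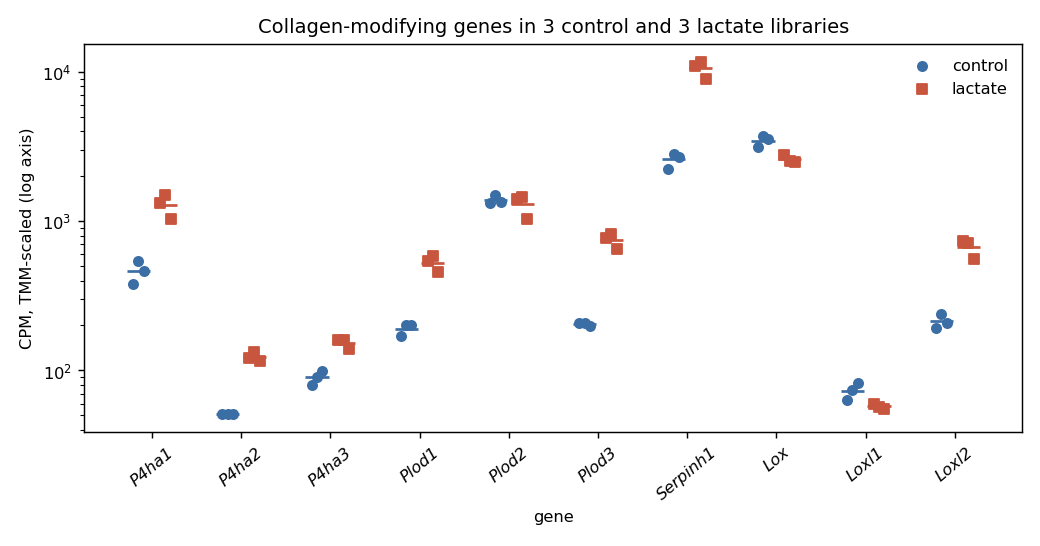
Level of each gene in the 3 control (circles) and 3 lactate (squares) libraries, in TMM-scaled CPM on a log axis, with horizontal lines at the group means. The groups overlap only for Plod2, and with library totals, which are not plotted, P4ha3 is no longer called higher.

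Serpinh1 had the largest fold change of the genes and the highest mean level over all libraries. In control libraries alone Lox was higher in CPM. Serpinh1 stood at 2246, 2823 and 2691 CPM in control libraries 1 to 3, and at 10938, 11689 and 8979 CPM in lactate libraries 1 to 3. Every lactate library was more than 3 times the highest control library. The log2 fold change was 2.03 ± 0.14 (SE, n = 3 per group; edgeR adjusted p = 5.6e-06), and 1.16 with library totals (edgeR adjusted p = 1.3e-05). By mean level it ranked 15 among the 13747 genes.

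All 3 alpha subunits of prolyl 4-hydroxylase were called higher with TMM factors, and the least abundant of them was the most even between control libraries. P4ha1, which encodes the main form in most cells, was at 377, 543 and 461 CPM in control and 1320, 1496 and 1028 CPM in lactate libraries. Its lowest lactate library was still well above its highest control library, and the log2 fold change was 1.48 ± 0.17 (SE; edgeR adjusted p = 9.5e-05). P4ha2, the form prominent in cartilage and bone, was at 51.3, 50.8 and 51.1 CPM in control and 120.5, 133.5 and 114.9 CPM in lactate libraries. Its control libraries were almost equal, and it rose by 1.27 ± 0.10 on the log2 scale (edgeR adjusted p = 1.1e-05). P4ha3, which encodes the remaining alpha subunit, was at 80.2, 89.9 and 99.8 CPM in control and 160.5, 160.4 and 138.6 CPM in lactate libraries. The groups did not overlap and the log2 fold change was 0.77 ± 0.12 (edgeR adjusted p = 0.00042), but with library totals it was −0.10 and not called (edgeR adjusted p = 0.43). P4ha1 and P4ha2 kept their call there, at 0.61 and 0.40.

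The lysyl hydroxylases split. Plod3 was at 208, 206 and 198 CPM in control and 770, 826 and 655 CPM in lactate libraries. It rose by 1.88 ± 0.11 on the log2 scale (SE; edgeR adjusted p = 2.9e-06). It had the smallest p of the 10 genes, and its control libraries differed little from each other. Plod1 was at 169, 201 and 203 CPM in control and 538, 585 and 454 CPM in lactate libraries, a rise of 1.46 ± 0.12 (edgeR adjusted p = 1.6e-05). With library totals Plod3 was at 1.01 and Plod1 at 0.59, both still called. Plod2, the most abundant of the family in both groups, was at 1331, 1489 and 1346 CPM in control and 1407, 1459 and 1034 CPM in lactate libraries. Its groups overlapped, with lactate libraries 1 and 2 within the control range and lactate library 3 below it. The log2 fold change of −0.10 had a 95% interval from −0.41 to 0.22 (edgeR adjusted p = 0.56), which does not reach the rises of Plod1 and Plod3. With library totals Plod2 was called lower, at −0.97 (edgeR adjusted p = 4.1e-05).

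The lysyl oxidases went opposite ways. Loxl2, which also acts on the type IV collagen of basement membranes, was at 193, 240 and 207 CPM in control and 736, 716 and 559 CPM in lactate libraries. All lactate libraries were at more than 2 times the highest control library, and the log2 fold change was 1.65 ± 0.14 (SE; edgeR adjusted p = 1.4e-05), or 0.78 with library totals. Lox, the founding enzyme of the family, was at 3122, 3695 and 3554 CPM in control and 2751, 2537 and 2493 CPM in lactate libraries. Each lactate library was below each control library, and Lox fell by 0.41 ± 0.10 on the log2 scale (edgeR adjusted p = 0.0053). Lox had the longest relative transcript length of the 10 genes, 2.11 times that of the median gene. With the trend on length removed Lox lost its call, at −0.08 (edgeR adjusted p = 0.52), and with library totals it kept it, at −1.27.

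Loxl1, best known for its part in elastic fibres, was at 63.5, 73.5 and 82.0 CPM in control and 60.0, 57.1 and 55.2 CPM in lactate libraries. The highest lactate library lay just under the lowest control library. The log2 fold change was −0.35 ± 0.12 (SE; edgeR adjusted p = 0.029), and this call was lost when any library but control replicate 1 was left out (edgeR adjusted p up to 0.12), and with the length trend removed (−0.20, edgeR adjusted p = 0.16). In all, the groups did not overlap in CPM for 9 of the 10 genes, where 72.2% of all genes tested did not. Lactate library 3 had the lowest CPM of its group for 10 of the 10 genes, as it had for 39.8% of all genes tested, and control library 1 was the lowest control library for 8 of the 10, against 39.6% of all genes tested. Without lactate replicate 3, Serpinh1 was at 2.16, P4ha1 at 1.64 and Plod2 at 0.07 on the log2 scale.

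**Figure D2:**
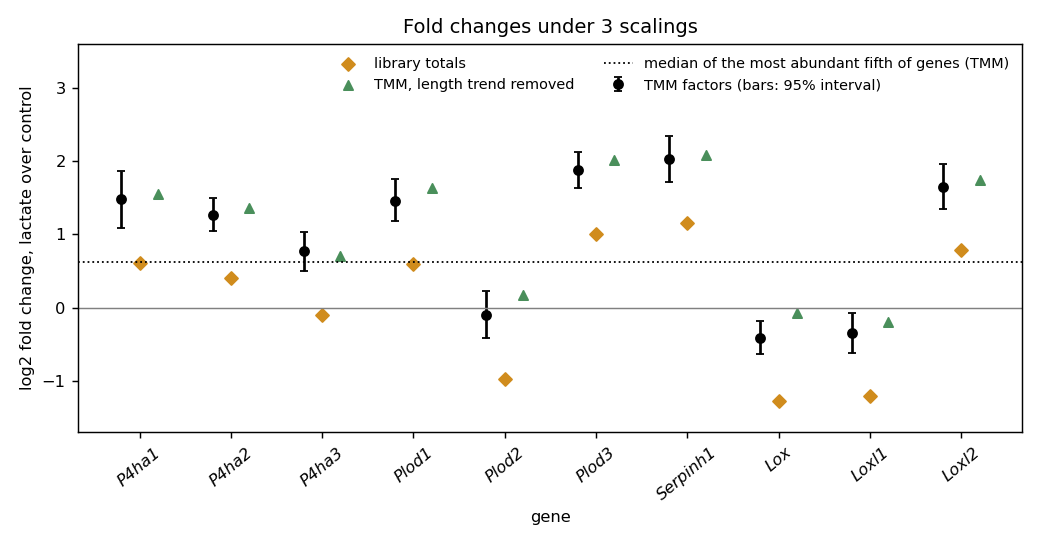
Log2 fold change of each gene, lactate over control, with TMM factors (circles, with 95% intervals), with library totals (diamonds) and with the length trend removed (triangles). Every gene lies lower with library totals than with TMM factors, P4ha3 at −0.10 and Plod2 at −0.97, and the dotted line marks 0.62, the median of the most abundant genes with TMM factors.

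Levels of different genes can be compared only per transcript length, for which the deposited FPKM values serve. In control libraries Serpinh1 led with 1657 ± 176 FPKM (SD, n = 3), followed by Lox with 1003 ± 75.9, Plod2 with 496.7 ± 23.8 and P4ha1 with 284 ± 47.3. Loxl2 (124 ± 12.4), Plod3 (97.4 ± 2.82), Plod1 (84.8 ± 7.83), P4ha3 (71.0 ± 7.67), Loxl1 (34.3 ± 4.28) and P4ha2 (29.0 ± 0.569) came next. Of these neighbours in FPKM, Plod1 and P4ha3 overlapped and the others did not. In lactate libraries Serpinh1 was at 3665 ± 229 FPKM, and P4ha1 (429.7 ± 50.1) and Lox (411.7 ± 27.1) overlapped behind it. Plod2 (252 ± 28.1), Loxl2 (212 ± 17.2) and Plod3 (195 ± 8.86) formed a run in which each overlapped the next, and Loxl1 was lowest, at 14.7 ± 0.804. FPKM is scaled by library totals, so these group levels carry that scaling.

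The share that each gene takes of its own family within 1 library does not depend on the scaling between libraries. It still carries the trend on transcript length. With that trend removed, Plod2 was at 0.17 and Plod3 at 2.01 on the log2 scale, and Lox at −0.08 and Loxl2 at 1.74. Among the lysyl hydroxylases, Plod2 made up 73.2, 73.9 and 72.3% of the summed FPKM in control libraries and 45.4, 44.4 and 41.9% in lactate libraries. The share of Plod3 was 14.4% ± 0.823 in controls and 34.0% ± 1.20 after lactate (SD, n = 3), and that of Plod1 was 12.5% ± 0.998 and 22.2% ± 0.633. In control libraries the telopeptide-type enzyme thus supplied most of the lysyl hydroxylase mRNA, and in lactate libraries less than the other two genes together. Plod3 was at 0.196 ± 0.012 of the level of Plod2 in control and at 0.776 ± 0.060 in lactate libraries.

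Among the lysyl oxidases, Lox made up 86.5, 86.0 and 86.7% of the summed FPKM in control libraries and 63.6, 62.4 and 67.3% in lactate libraries. Loxl2 held 10.7% ± 0.559 in controls and 33.2% ± 2.64 after lactate (SD, n = 3). The ratio of Loxl2 to Lox was 0.124 ± 0.0069 in control and 0.517 ± 0.060 in lactate libraries, 4.18 times as high. Loxl1 stayed the smallest part, at 2.95% ± 0.249 and 2.31% ± 0.0889. In the prolyl 4-hydroxylase family the shares moved less. P4ha1 was at 73.7% ± 2.93 in control and 80.4% ± 1.82 in lactate libraries, P4ha3 at 18.6% ± 2.02 and 12.4% ± 1.14, and P4ha2 at 7.64% ± 1.18 and 7.18% ± 0.752. For 8 of the 9 shares the groups did not overlap, P4ha2 being the exception. The shares of a family add up to the whole, so these 8 are not separate results. How often such shares do not overlap in other gene families was not computed. With 3 libraries against 3 the two-sided exact permutation test cannot go below p = 0.10, which those 8 reached (adjusted p = 0.11 over 9 shares), so none can pass 0.05.

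**Figure D3:**
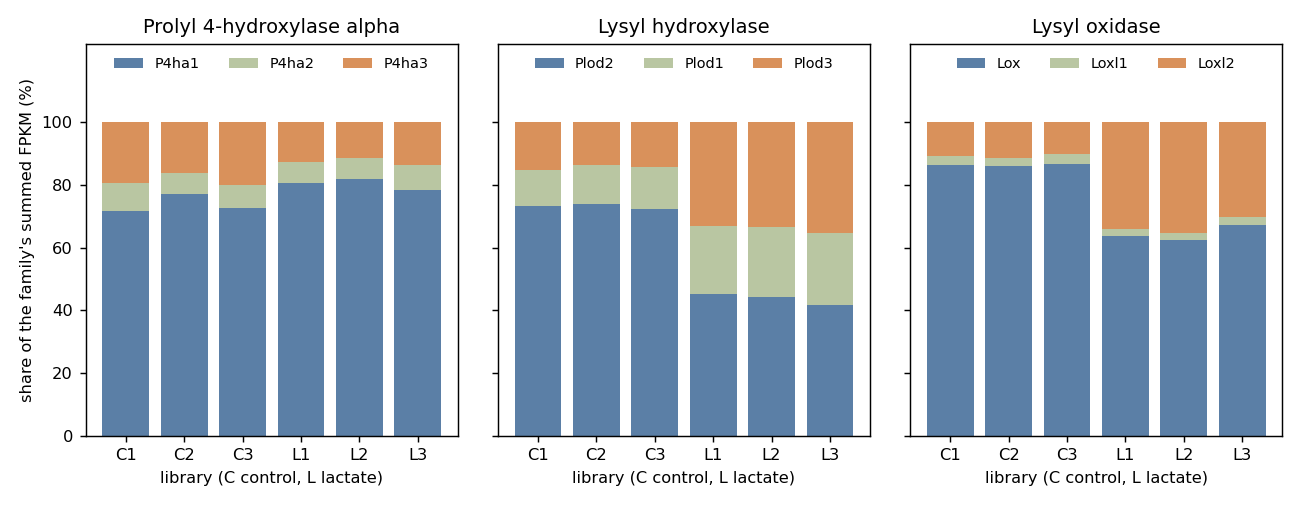
Share of each gene in the summed FPKM of its family, in percent, for control libraries C1 to C3 and lactate libraries L1 to L3. Plod2 goes from 72.3 to 73.9% in control to 41.9 to 45.4% in lactate libraries and Lox from 86.0 to 86.7% to 62.4 to 67.3%, while P4ha1 stays the main alpha subunit.

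The substrates of these proteins were more abundant after lactate. The summed FPKM of the fibril-forming chains Col1a1, Col3a1, Col5a1 and Col5a2 was 10642, 10031 and 9434 in control and 19849, 21442 and 17116 in lactate libraries, a ratio of means of 1.94. Col1a1 was at 7156 of the control mean of 10036 FPKM, so the sum follows this gene most. Most genes were lower relative to this sum after lactate. Of all 13747 genes tested, 84.4% had a lower ratio to it in every lactate library than in any control library, and of the 2749 most abundant 78.9%. The median log2 difference in this ratio was −1.90 over the 12985 genes above 0 FPKM in all 6 libraries and −1.21 over the 2745 of them among the most abundant. Serpinh1 was at a log2 ratio to collagen of −2.60 ± 0.23 in controls and −2.41 ± 0.07 after lactate (SD, n = 3), and Plod3 at −6.69 ± 0.05 and −6.64 ± 0.10. The ratios of P4ha1 (−5.15 ± 0.30 and −5.50 ± 0.02) and Loxl2 (−6.34 ± 0.19 and −6.52 ± 0.10) overlapped between groups as well. With 3 libraries a group, overlap does not show that these ratios were equal. The ratios also carry the trend on transcript length. With that trend removed, Col1a1 rose by 2.43 on the log2 scale, Col3a1 by 1.88, Col5a1 by 1.84 and Col5a2 by 1.79. Serpinh1 then rose by 2.09, Plod3 by 2.01, Loxl2 by 1.74 and P4ha1 by 1.55, all less than Col1a1.

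The ratios of the other 6 genes were lower in every lactate library than in any control library, so 6 of 10 did what 84.4% of all genes tested did. Lox was at −3.32 ± 0.19 in controls and −5.56 ± 0.25 after lactate (SD, n = 3), a ratio 4.71 times lower. Loxl1 was 4.48 times lower (−8.20 ± 0.27 and −10.36 ± 0.24) and Plod2 was 3.82 times lower (−4.34 ± 0.11 and −6.27 ± 0.05). The log2 differences of Lox (−2.24) and Loxl1 (−2.16) lay beyond the median gene's −1.90, and that of Plod2 (−1.93) was close to it. Each of them lay beyond −1.21, the median of the most abundant genes. P4ha3 was 2.08 times lower, P4ha2 1.47 times and Plod1 1.29 times, all less than the median gene. Each of these 6 reached the smallest p of the two-sided exact permutation test, 0.10 (adjusted p = 0.17 over 10 ratios). Against Col3a1 alone, whose rise was smaller than that of Col1a1, the log2 differences were −0.01 for P4ha1, −0.02 for Plod1, 0.39 for Plod3, 0.54 for Serpinh1 and 0.16 for Loxl2. Those of Lox (−1.90), Loxl1 (−1.82) and Plod2 (−1.59) were the lowest again.

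**Figure D4:**
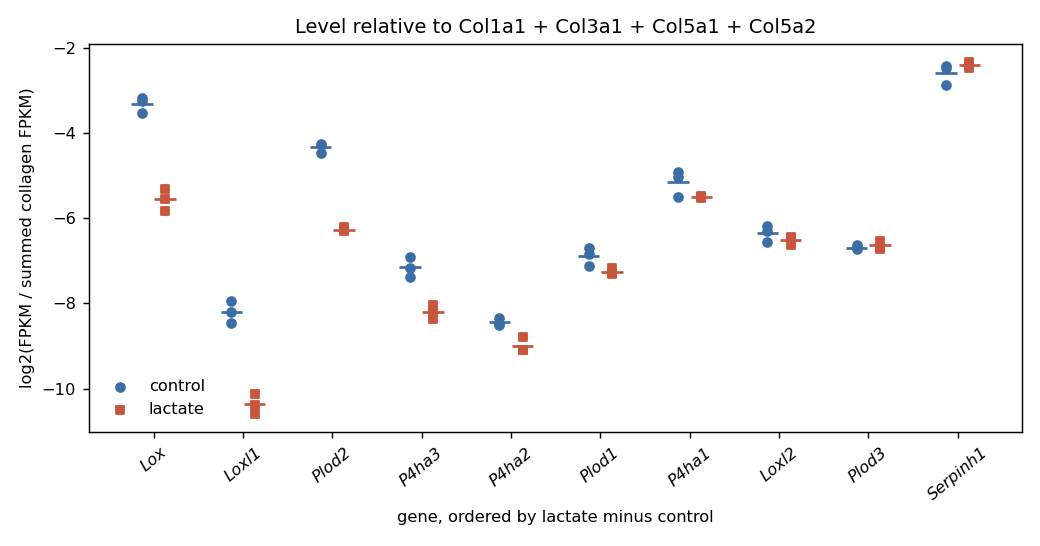
Log2 ratio of each gene's FPKM to the summed FPKM of Col1a1, Col3a1, Col5a1 and Col5a2 in each library, with group means as lines, ordered by the difference lactate minus control. Lox, Loxl1 and Plod2 at the left differ by −2.24, −2.16 and −1.93, and Serpinh1 at the right by 0.20. The medians, −1.90 over all genes tested and −1.21 over the most abundant, are not plotted.

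Genes that rose differed in the hypoxia response cores that their promoters hold. RefSeq's promoter table for the rat assembly GRCr8, with 1 start per gene, held 8 of the 10 genes (all but Lox and Loxl2), and windows from 250 bases before to 50 after the start were searched on both strands. The core of the hypoxia response element was searched as ACGTG and as GCGTG, the first of which is also part of the E-box CACGTG. The core ACGTG was found in P4ha1, P4ha2 and Plod2 and in 19.3% of all 33469 promoters, and GCGTG in P4ha1, P4ha2, Plod1, Plod2 and Plod3 and in 29.7%. Either core was present in 5 of the 8, against 41.6% of all promoters, and these 5 windows were rich in G and C (63.3 to 73.7%, median of all promoters 51.7%). The part of base composition in this count was not tested. The windows of Serpinh1, P4ha3 and Loxl1 held neither core and were rich in G and C as well (60.7, 69 and 61%). The 3 shown are Plod2, with 4 cores and not called with TMM factors, P4ha1, with 3 cores and called higher, and Serpinh1, with 0 cores and the largest rise. Each is given for the 250 bases before the start, 5′ to 3′ on the gene's strand, with the cores in capitals on either strand (CACGT and CACGC are their reverse complements). They lie at chr8:101964068-101964317 (plus strand), chr20:27844796-27845045 (plus strand) and chr1:163062977-163063226 (minus strand). The ACGTG of P4ha1 starts at base 12 after the start and lies outside the stretch shown.
Plod2: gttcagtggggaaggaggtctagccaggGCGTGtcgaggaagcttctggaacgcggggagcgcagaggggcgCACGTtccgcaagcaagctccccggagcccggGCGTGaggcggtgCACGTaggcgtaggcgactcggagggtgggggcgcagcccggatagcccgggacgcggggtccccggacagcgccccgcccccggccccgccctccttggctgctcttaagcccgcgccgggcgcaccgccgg
P4ha1: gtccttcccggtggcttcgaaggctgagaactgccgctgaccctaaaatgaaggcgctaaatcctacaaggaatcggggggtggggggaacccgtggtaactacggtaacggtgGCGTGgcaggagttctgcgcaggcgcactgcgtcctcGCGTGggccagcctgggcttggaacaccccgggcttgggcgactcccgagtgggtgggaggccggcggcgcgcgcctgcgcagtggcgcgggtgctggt
Serpinh1: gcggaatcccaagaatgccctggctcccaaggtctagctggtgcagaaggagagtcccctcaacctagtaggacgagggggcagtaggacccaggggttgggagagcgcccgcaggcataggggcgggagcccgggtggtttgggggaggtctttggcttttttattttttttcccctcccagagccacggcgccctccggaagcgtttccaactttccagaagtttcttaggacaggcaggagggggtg

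Of motifs of other stress and growth factor responses, none was found in the 8 windows: the unfolded protein response element TGACGTGG (in 0.595% of all promoters), the cyclic AMP response element TGACGTCA (1.83%), the ATF4 composite element TGATGNAAT (1.09%) and the tandem SMAD element GTCTAGAC (0.197%). The TATA box TATAAA, in 14.2% of all promoters, was in none of the 8 either. A match or its absence describes these letters in this window only.

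Genes whose products work with these 10 are given by list, and their counts read against the 31.4% of all genes tested, and 60.8% of the 2749 most abundant, that were called higher. Of 9 tested hydroxylase partners and prolyl 3-hydroxylases, 7 were higher, while P3h2 (0.81 ± 0.40) and Fkbp14 (−0.40 ± 0.16) were not called. The median log2 fold change was 0.89, and library totals gave 0.02, 4 higher and 1 lower. P4hb, the shared partner of the 3 alpha subunits, rose by 2.17 ± 0.10 (SE), more than any alpha subunit. Fkbp10, a prolyl isomerase that aids telopeptide lysine hydroxylation, rose by 1.82 ± 0.11, the cyclophilin Ppib by 1.73 ± 0.13 and P3h3 by 1.36 ± 0.10. Crtap, Mia3, Pcolce2, Col1a2 and Col6a3 were not analysed here. The galactosyltransferase Colgalt1, which adds the first sugar to hydroxylysine, rose by 1.53 ± 0.11, while Colgalt2 was under the filter. Of the remaining lysyl oxidases Loxl3 rose by 0.86 ± 0.11 (0.00 and not called with library totals), and Loxl4 was at 0.07 ± 0.15 and not called (−0.81 and called lower with library totals).

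Of 9 tested genes for the activation of lysyl oxidase and for fibre assembly, 7 were higher and 2 lower, with a median of 1.39 (library totals gave 0.52, 5 higher and 3 lower). Pcolce, an enhancer of procollagen processing, rose by 1.76 ± 0.14 (SE), the matricellular gene Postn by 1.51 ± 0.13, fibronectin (Fn1) by 1.44 ± 0.12 and Efemp2, which brings lysyl oxidase to elastin, by 1.39 ± 0.11. Bmp1, the proteinase that cleaves the propeptide of lysyl oxidase, rose by 1.45 ± 0.14. Thbs1 fell by 2.45 ± 0.16 and the proteinase gene Tll1 fell by 0.99 ± 0.14. For copper, the cofactor of the oxidases, the importer Slc31a1 rose by 1.80 ± 0.10, the chaperone Atox1 by 1.82 ± 0.15 and the Golgi pump Atp7a by 0.76 ± 0.22, the last at −0.07 and not called with library totals. Of 5 genes for ascorbate, iron and zinc, the ascorbate transporter Slc23a2 (0.76 ± 0.13) and the metal importer Slc39a14 (0.88 ± 0.09) were higher, both not called with library totals. Slc23a1 (1.08 ± 0.63), Gsto1 (0.12 ± 0.13) and Slc39a13 (−0.19 ± 0.15) were not called, but with library totals Gsto1 (−0.74, edgeR adjusted p = 0.0014) and Slc39a13 (−1.06, edgeR adjusted p = 0.00011) were called lower.

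Of 7 tested genes for procollagen export, 2 were higher and 4 lower, with a median of −0.56 (library totals gave −1.42, 6 lower and 1 not called). Of all genes tested 34.6% were lower, and of the 2749 most abundant 20.1%. With library totals 61.8% of all genes tested were lower, with a median of −0.96. Creb3l1, a transcription factor for secretory and collagen genes, fell by 1.78 ± 0.15 (SE), Klhl12 by 1.36 ± 0.32, the coat subunit Sec23a by 0.88 ± 0.14 and Mia2 by 0.56 ± 0.11. The cargo receptors Lman1 (0.88 ± 0.11) and Tmed2 (0.56 ± 0.10) were higher, but Tmed2 was at −0.30 and called lower with library totals and Lman1 at 0.02 and not called. Of 9 tested substrate genes 8 were higher and Col2a1 was not called, with a median of 1.43 (library totals gave 0.58, 7 higher and 2 not called). Among them were Col1a1 at 1.97 ± 0.16, Col5a2 at 1.45 ± 0.13, Col6a2 at 1.39 ± 0.11 and Col5a1 at 1.38 ± 0.12. None of these lists was tested as a list.

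**Figure D5:**
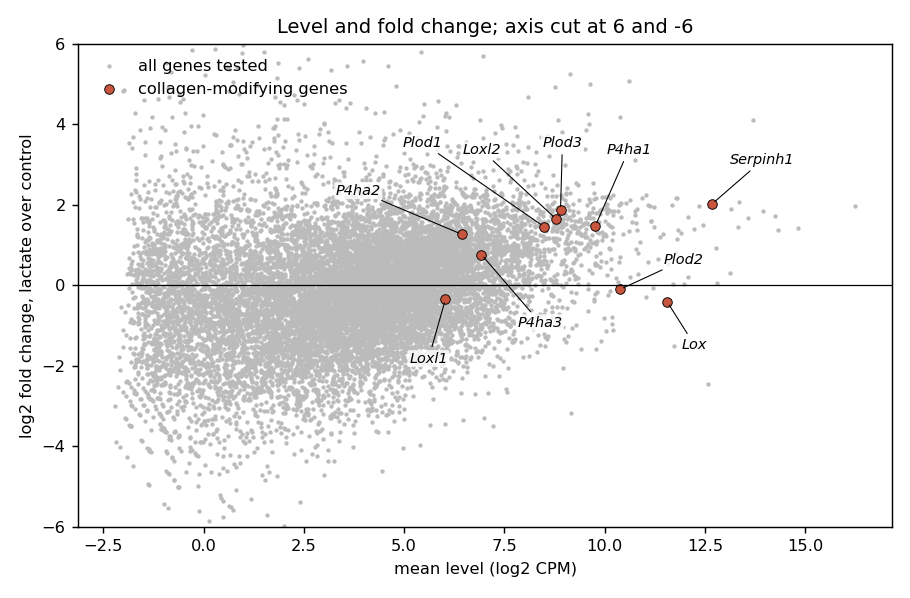
Log2 fold change against mean level in log2 CPM for all genes tested (grey) and the 10 collagen-modifying genes (red), with TMM factors. The 10 lie at the abundant end, where most genes lie above 0, and Plod2, Lox and Loxl1 lie at or below it. The vertical axis ends at 6 and −6, and 81 genes lie beyond it.

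Libraries held 30291357 to 38989574 counts, and the 20 most abundant genes took 19.7 to 21.0% of them in control and 29.7 to 33.7% in lactate libraries. Among nucleus pulposus markers 9 of 12 were in the table, with a summed level of 594.8 to 672 FPKM in control and 326 to 370.0 in lactate libraries, mostly Acan. FPKM carries the scaling by library totals, and with TMM factors Acan was at −0.06 and not called, Cd24 (5.00-fold) and Sox9 (2.72-fold, not called with library totals) were higher, Pax1 was lower and another 3 were not called. Col2a1, Krt19 and Tbxt, which define cartilage and notochord-derived cells, were each below 1 FPKM on average in both groups. Annulus and fibroblast markers (5 of 6) summed to 7261 to 8608 FPKM in control and 14105 to 17545 in lactate libraries, nearly all of it Col1a1. Thy1 was higher too, while Mkx and Pdgfra were 5.14-fold and 2.68-fold lower and Scx was not called. Smooth muscle and pericyte markers (5 of 6) summed to 666 to 861 and 418 to 486 FPKM, mostly Acta2, which was at 0.03 and not called with TMM factors. Des and Mcam were 3.98-fold and 3.45-fold higher, and Pdgfrb and Myh11 were 2.40-fold and 2.25-fold lower. Macrophage markers (4 of 5) summed to 7.59 to 8.14 and 1.78 to 2.41 FPKM, where Cd14 was 3.30-fold lower and Cd68 2.79-fold higher (not called with library totals). Endothelial markers (2 of 4) summed to at most 0.0506 FPKM. The part of these differences in the results was not tested.

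In the authors' deposited table the log2 fold changes of the 10 genes were close to those above. It gives Serpinh1 at 1.99, Plod3 at 1.84, Loxl2 at 1.61, P4ha1 at 1.44, Plod1 at 1.42, P4ha2 at 1.23 and P4ha3 at 0.73, with Plod2 at −0.13, Loxl1 at −0.38 and Lox at −0.45. The smaller table of 6359 genes that the authors selected, 36.8% of all, holds 6 of the 10. P4ha3, Plod2, Lox and Loxl1 are not in that authors' deposited table, whose smallest absolute log2 fold change is 1.00. A reading of that selection alone shows 6 genes that rose and none of the 4 that did otherwise or rose less.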

How the data were processed

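RNA from 6 libraries was sequenced after an mRNA library kit, per the labels' protocols. The authors deposited raw read counts per gene and FPKM for each library, with their own log2 fold changes, p-values and adjusted p-values, per the file headers. The aligner, the counting tool, the annotation and the strand setting were not given in the sources used here. Although gene names are those of rat, the builds listed in the submitters' processing notes are those of mouse (GRCm38, mm10), so which genome was used is not settled. A mouse build would affect genes by how far their sequence differs.

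Counts were tested in R 4.3.3 with edgeR 4.0.16 and its quasi-likelihood F test (TMM factors, filterByExpr, group as the only term, Benjamini-Hochberg adjustment over 13747 genes, called under 0.05). SE is the log2 fold change over the square root of F. A family share is a gene's FPKM over its family's sum, and the ratio to collagen is taken in the same way. Both were compared with a two-sided exact permutation test. The limit that a count of 0 allows, 3 counts, is 0.0580 to 0.141 CPM and covers counting error only. Every member was far above it. Relative transcript length is the ratio of deposited count to FPKM, and its trend was removed as an offset fitted by lowess.

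As alternatives, library totals, RLE factors and upper-quartile factors replaced TMM. Others were another filter and none, DESeq2 1.42.0, limma-voom and limma-trend (limma 3.58.1) on log2(FPKM + 1) and log2(FPKM + 0.1), a replicate block, removal of the length trend and each library left out. Leaving out 32 genes at 0 in 1 library and over 1000 in another was added after seeing the data. The scripts were tested on simulated data. The members, lists and alternatives were chosen with earlier results of these data known. Named genes were all members and, per list, the called genes with the smallest p, up to 4 in each direction, and every gene of lists of up to 5. Bmp1 was named after its values were seen.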

Additional observations from a re-analysis of the deposited data

How the results depend on the processing

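Across 18 alternative fits, P4ha1, P4ha2, Plod1, Plod3, Serpinh1 and Loxl2 kept their direction and their call in all 18. With library totals 1722 genes were called higher and 8492 lower, with limma-trend on log2(FPKM + 1) 1781 and 8759, and on log2(FPKM + 0.1) 1770 and 8737. Under these 3 settings P4ha3 was at −0.10, −0.10 and −0.10 (adjusted p = 0.43, 0.38 and 0.37) and Plod2, at −0.97, −0.98 and −0.98, was called lower. With the length trend removed 0 members were called lower (edgeR adjusted p = 0.52 for Lox at −0.08 and 0.16 for Loxl1 at −0.20), and 0 at an unadjusted p under 0.05; DESeq2, which keeps the trend, called 2 lower. With RLE factors only Lox was called lower (−0.37, edgeR adjusted p = 0.013), and Loxl1 lost its call (−0.30, edgeR adjusted p = 0.051). Leaving out 1 library gave 1 to 2 members called lower, with Loxl1 between −0.44 and −0.26. Whether the replicate numbers pair the samples is not settled here. Same-numbered libraries correlated in their deviations at 0.0078, 0.038 and 0.084, and differently numbered ones between −0.108 and 0.0713. With 3 libraries a group these values cannot decide it. The replicate block left 1 member called lower, with Loxl1 at −0.34 (edgeR adjusted p = 0.057), and changed no other member's call. Against Col3a1 alone, since Col1a2 was not analysed here, the differences in log2 ratio to collagen were −0.01 for P4ha1, −0.22 for P4ha2, −0.71 for P4ha3, −0.02 for Plod1, −1.59 for Plod2, 0.39 for Plod3, 0.54 for Serpinh1, −1.90 for Lox, −1.82 for Loxl1 and 0.16 for Loxl2. That denominator holds fewer genes and a smaller rise. For the other changes the cause was not tested.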
